A study of Mus musculus with 30 samples.

Results

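Rosiglitazone, written ROSI in the labels, was compared head to head with the hormonal cocktail MDI in 3T3-L1, a clonal line of mouse preadipocytes that forms fat cells when suitably induced. The members were chosen by sample: 3 ROSI arrays and 3 MDI arrays of the 30 arrays in the series, with all 14763 named genes that the arrays measured. The 3 arrays of the solvent control DMSO give the level of each named gene in cells that received neither treatment. The labels do not spell out ROSI, which is the usual abbreviation of rosiglitazone.

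Cells were confluent for 2 days when exposure began, the medium held foetal bovine serum, and RNA was taken on day 10 in every group. ROSI cells received the compound for 10 days at a dose that is not given in the labels used here. MDI cells received dexamethasone at 0.25 µM and isobutyl methylxanthine at 0.5 mM for 48 h. Insulin, at 10 µg/mL, was given with them and then alone for 8 days. DMSO cells received the solvent at 0.1%. MDI is labelled a positive control. No ROSI sample is labelled as receiving dexamethasone, methylxanthine or added insulin, so the effects of the separate agents of the cocktail cannot be told apart. The record speaks of 3 biological replicates a group, but gives no separate cultures for them, and the p-values thus cover only the spread between these samples, which may be technical.

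Fat cell formation runs through a cascade in which C/EBP beta and C/EBP delta lead to PPAR gamma and C/EBP alpha, which then keep each other on. Rosiglitazone is a thiazolidinedione, an agonist ligand of PPAR gamma, the nuclear receptor that turns on genes of lipid uptake, storage and oxidation. In the cocktail, dexamethasone activates the glucocorticoid receptor, isobutyl methylxanthine raises cyclic AMP by blocking phosphodiesterases, and insulin drives glucose uptake and fat synthesis.

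Each array set the RNA of a sample, dyed with Cy3, against a Cy5 reference, for which, per the labels, equal aliquots of the samples were pooled. A value is therefore log2 of sample over reference, and levels of different genes cannot be set against each other. A ratio also cannot show whether a gene is present or absent. Over all entries the mean of the ROSI arrays correlated at 0.498 with that of the MDI arrays, and the mean of DMSO at -0.334 with ROSI and -0.512 with MDI. Because the reference pools the samples, ratios of groups on either side of the pool tend to correlate negatively by construction. All these arrays share the reference, and the labels state the dyes, so the direction was kept. ROSI arrays correlated at 0.648 to 0.739 with each other, below the MDI arrays (0.845 to 0.892) and the DMSO arrays (0.835 to 0.85). The spread of a gene between arrays was similar, with a median SD of 0.063 in ROSI, 0.059 in MDI and 0.066 in DMSO. A correlation of ratios also depends on how far a group lies from the reference, so the lower ROSI values do not show noisier arrays. No batch is given in the labels or headers. The number of arrays limits the precision.

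ROSI and MDI cells differed in a broad set of genes, mostly by small amounts. Here and below, a gene was called higher or lower at an adjusted p under 0.05 in limma's moderated test. Of the 14763 named genes, 1604 were higher in ROSI (10.9%) and 1728 were lower (11.7%). Counts of gene lists in ROSI against MDI below are to be read beside these shares. All 3 ROSI arrays lay above all 3 MDI arrays in 18.4% of genes and below them in 18.0%. Called differences of at least 2-fold were fewer and uneven, with 28 genes higher and 108 lower in ROSI. At 4-fold or more, at least 2 on the log2 scale, there were 2 higher and 17 lower. Quantile normalization between arrays, which forces all arrays onto the same distribution, gave 1172 higher and 1081 lower. It also shrank many of the differences in genes that were high in MDI, and for genes described below its values for ROSI against MDI are given where they end a call, turn a called direction or move a called difference by more than 1.5 times. Against DMSO, 17.9% of genes were higher and 15.5% lower in ROSI, and 21.9% were higher and 19.6% lower in MDI. These last comparisons share the DMSO arrays. Among 219 genes named by rule, quantile normalization turned the direction of 11 called differences from DMSO in ROSI and of 3 in MDI, and it moved 39 and 124 others by more than 1.5 times. The order of a group relative to DMSO is given as deposited unless stated.

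**Figure D1:**
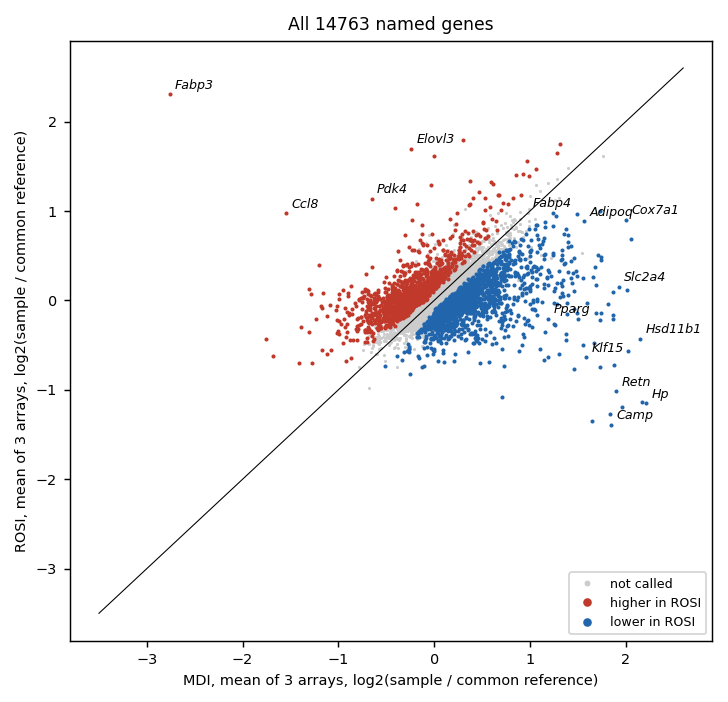
Mean log2 ratio to the reference in the 3 MDI arrays (x axis) and the 3 ROSI arrays (y axis) for every named gene, with called genes in colour and the line of equal values in black. Fabp3 lies apart at the upper left, with means of 2.30 in ROSI and -2.76 in MDI, and the genes farthest below the line include Hp, Camp and Retn.

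The widest difference between the treatments was in Fabp3, the fatty acid-binding protein typical of heart and other oxidative muscle. Fabp3 lay at 2.13, 2.29 and 2.49 in the ROSI arrays, -2.64, -2.74 and -2.91 in MDI and -3.11, -3.81 and -2.76 in DMSO. The ROSI arrays stood apart from the others, and the MDI and DMSO arrays overlapped. The difference of 5.07 ± 0.18 (log2 ± SE, 33.5-fold, adjusted p = 1.48e-16) had no equal among the called genes. Against DMSO, Fabp3 was higher by 5.53 in ROSI. For MDI the excess over DMSO of 0.46 passed narrowly (adjusted p = 0.0458). Quantile normalization turned it to -0.63, a called difference the other way (adjusted p = 0.000278). The call was lost with array median centring, robust eBayes, array weights, the replicate number as a block and a fit of the compared groups alone. The excess was 0.17 without DMSO replicate 2 and 0.70 without DMSO replicate 3, and the call was lost without DMSO replicates 1 or 2 or MDI replicates 1 or 2.

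Pdk4, Elovl3, Ephx2 and Chchd10 were also among the 25 leading genes higher in ROSI. The 25 leading genes each way were picked from called genes whose ROSI and MDI arrays did not overlap. For them that separation, wherever it is stated, describes the choice. Pdk4, a kinase that switches off pyruvate dehydrogenase and so spares glucose, lay at 1.04, 1.09 and 1.27 in ROSI, -0.59, -0.56 and -0.80 in MDI and -0.40, -0.58 and -0.47 in DMSO. Its ROSI arrays lay above all others, and its MDI arrays overlapped with DMSO. The difference from MDI was 1.79 ± 0.071 (adjusted p = 1.09e-15). Elovl3, an elongase of very long chain fatty acids known from brown fat, lay at 1.46, 1.81 and 1.82 in ROSI, -0.21, -0.34 and -0.16 in MDI and -0.85, -1.38 and -0.77 in DMSO. Ephx2, the soluble epoxide hydrolase, lay at 1.56, 1.65 and 1.63, -0.078, 0.11 and -0.035 and -1.95, -2.0 and -1.83 in the same order. For Elovl3 and Ephx2 the 3 groups did not overlap, with DMSO lowest and ROSI highest. Chchd10, a protein of the space between the mitochondrial membranes, had the same order, with 1.79 ± 0.16 in ROSI, 0.30 ± 0.097 in MDI and -1.50 ± 0.12 in DMSO (mean ± SD, n = 3 in each group).

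The promoters of the gene highest and a gene near the top in ROSI, and of a pair of genes lower in ROSI, are shown. Rosiglitazone binds PPAR gamma, and dexamethasone, an agent of the cocktail, activates the glucocorticoid receptor. Binding of either receptor was not measured. They run from 250 bases before to 50 bases after the start (RefSeq, GRCm38.p6) and are written 5′ to 3′ on the gene's strand. Capitals mark the motif AGGTCA, the core that PPAR gamma and other nuclear receptors bind, on either strand.
Fabp3 (chr4:130308488-130308787, plus strand): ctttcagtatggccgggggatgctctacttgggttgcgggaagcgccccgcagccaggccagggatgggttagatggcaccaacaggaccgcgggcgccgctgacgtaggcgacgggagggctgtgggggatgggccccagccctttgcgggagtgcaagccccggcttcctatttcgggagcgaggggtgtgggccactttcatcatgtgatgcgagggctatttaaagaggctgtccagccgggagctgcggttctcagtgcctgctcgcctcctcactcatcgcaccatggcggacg
Chchd10 (chr10:75932880-75933179, plus strand): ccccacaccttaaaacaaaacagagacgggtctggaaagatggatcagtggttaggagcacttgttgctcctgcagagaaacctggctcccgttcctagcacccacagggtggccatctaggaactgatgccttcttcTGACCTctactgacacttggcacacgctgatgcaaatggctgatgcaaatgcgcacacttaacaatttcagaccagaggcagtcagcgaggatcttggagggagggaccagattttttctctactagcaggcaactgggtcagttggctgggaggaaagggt
Hsd11b1 (chr1:193242311-193242610, minus strand): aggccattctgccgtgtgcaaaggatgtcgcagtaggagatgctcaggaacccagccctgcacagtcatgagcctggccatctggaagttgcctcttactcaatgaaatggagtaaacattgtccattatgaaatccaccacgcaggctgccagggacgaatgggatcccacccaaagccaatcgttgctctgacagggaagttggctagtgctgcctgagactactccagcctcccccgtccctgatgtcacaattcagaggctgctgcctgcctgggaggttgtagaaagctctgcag
Pparg (chr6:115360894-115361193, plus strand, the first of 3 starts in the table): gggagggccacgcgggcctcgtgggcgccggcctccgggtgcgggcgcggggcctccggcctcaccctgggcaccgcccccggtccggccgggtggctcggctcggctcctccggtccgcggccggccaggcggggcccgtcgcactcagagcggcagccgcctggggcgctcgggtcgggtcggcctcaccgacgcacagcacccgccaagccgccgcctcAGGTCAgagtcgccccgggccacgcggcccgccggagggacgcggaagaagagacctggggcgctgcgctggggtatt
The Chchd10 window holds the motif at position -112 on the minus strand of the gene, and the Pparg window at position -28 on its plus strand. Of the 25 leading genes higher in ROSI, 16 had a promoter in the table and 3 of these held AGGTCA on either strand. Of the 25 lower in ROSI, 15 had a promoter and 3 held it. Among all 32851 promoters of the same length, 16.3% held the motif. A repeat of AGGTCA after 1 base, with up to 2 mismatches, was held by 0 of 16 and 1 of 15, against 3.86% of all promoters. Gene counts use the first promoter of each gene, whereas the shares cover all promoters. For TGTTCT, the core of the glucocorticoid receptor's motif, the counts were 1 of 16 and 2 of 15, against 19% of all promoters. For TTGCNNAA, a C/EBP motif, they were 1 of 16 and 2 of 15, against 10.8%. These last motifs have no match in the 4 windows shown, so no motifs overlap there. A match is a description of letters, and the absence of a match says only that these letters are not in the window.

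The other leading genes higher in ROSI fell into separate roles, and in many of them the MDI arrays lay below DMSO. Among chemokines, Ccl8 lay at 0.90, 1.02 and 1.01 in ROSI, -1.39, -1.55 and -1.71 in MDI and 0.19, 0.078 and 0.23 in DMSO, so the solvent arrays lay between the treatments without overlap. Its difference between the treatments was 2.53 ± 0.078 (adjusted p = 1.08e-17). Ccl11, also called eotaxin, had 0.90 ± 0.082 in ROSI, -0.24 ± 0.048 in MDI and -0.17 ± 0.034 in DMSO. Ccl2, which attracts monocytes, had -0.62 ± 0.16 in ROSI, -1.68 ± 0.17 in MDI and 0.11 ± 0.16 in DMSO, and Ccl7 had 0.080 ± 0.084 in ROSI, -0.90 ± 0.14 in MDI and 0.37 ± 0.084 in DMSO. In Ccl2 and Ccl7 DMSO was the highest group. The 4 chemokine genes lie on chromosome 11.

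Several genes of lysosome, membrane and signalling were lower in MDI than in the other groups. Dpp7, a lysosomal dipeptidase, had 0.12 ± 0.042 in ROSI, -1.30 ± 0.035 in MDI and 0.26 ± 0.053 in DMSO. Mlana, a protein of melanosomes, had 0.075 ± 0.086 in ROSI, -1.29 ± 0.059 in MDI and 0.25 ± 0.073 in DMSO. Rnase4, a secreted ribonuclease, had -0.065 ± 0.12 in ROSI, -1.18 ± 0.051 in MDI and -0.035 ± 0.13 in DMSO, and Myo5a, an actin motor, had -0.049 ± 0.13 in ROSI, -1.08 ± 0.11 in MDI and -0.12 ± 0.066 in DMSO. 3300005D01Rik, which carries no gene name in the annotation, had 0.40 ± 0.11 in ROSI, -1.21 ± 0.075 in MDI and 0.27 ± 0.017 in DMSO, and Gpr137b-ps, a pseudogene related to Gpr137b, had 0.16 ± 0.047 in ROSI, -0.87 ± 0.080 in MDI and 0.18 ± 0.064 in DMSO. In these 6 genes the MDI mean lay at least 1.03 below the ROSI mean, whereas the ROSI and DMSO means lay within 0.18 of each other. Lyz1, a lysozyme with a near-identical copy in Lyz2 that probes may not separate, had -0.29 ± 0.075 in ROSI, -1.39 ± 0.059 in MDI and 0.51 ± 0.18 in DMSO.

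In a further set ROSI alone stood high. Olr1, a receptor for oxidised low-density lipoprotein, had 1.30 ± 0.016 in ROSI, -0.028 ± 0.013 in MDI and -0.32 ± 0.054 in DMSO. Tmem140 had 1.07 ± 0.024 in ROSI, -0.18 ± 0.0099 in MDI and -0.76 ± 0.021 in DMSO. Sgk2, a serine and threonine kinase of the serum and glucocorticoid kinase family, had 1.03 ± 0.14 in ROSI, -0.40 ± 0.063 in MDI and -0.55 ± 0.16 in DMSO. Chrna2, a nicotinic receptor subunit, had 0.73 ± 0.16 in ROSI, -0.30 ± 0.12 in MDI and -0.28 ± 0.099 in DMSO. In these 4 genes the MDI mean exceeded the DMSO mean by at most 0.58, while ROSI lay 1.01 to 1.84 above DMSO.

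Matrix and TGF beta related genes of the leading set were high in DMSO, intermediate in ROSI and low in MDI. Fbln5, an elastic fibre protein, had -0.084 ± 0.15 in ROSI, -1.17 ± 0.047 in MDI and 0.46 ± 0.093 in DMSO. Pmepa1, known as a TGF beta induced gene, had 0.11 ± 0.11 in ROSI, -0.96 ± 0.075 in MDI and 0.37 ± 0.059 in DMSO. Ccn1, a matricellular protein, had 0.071 ± 0.14 in ROSI, -0.99 ± 0.10 in MDI and 0.37 ± 0.075 in DMSO. Rasl11b, a small GTPase, had -0.21 ± 0.12 in ROSI, -1.23 ± 0.068 in MDI and 0.36 ± 0.11 in DMSO. Col8a1, a network-forming collagen chain, had 0.081 ± 0.17 in ROSI, -1.16 ± 0.23 in MDI and 0.62 ± 0.16 in DMSO, and its difference of 1.24 ± 0.43 passed narrowly (adjusted p = 0.0442). The Col8a1 call was lost when any of the 6 arrays was left out, and with quantile normalization, robust eBayes or array weights. Cyp26b1, which breaks down retinoic acid, had -0.43 ± 0.033 in ROSI, -1.76 ± 0.083 in MDI and -1.06 ± 0.052 in DMSO, with DMSO in the middle.

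All of the 25 genes lowest in ROSI relative to MDI had MDI arrays above the reference. They too were picked for ROSI and MDI arrays that did not overlap. Haptoglobin (Hp), a haemoglobin-binding plasma protein made by liver and fat, lay at -1.17, -1.22 and -1.07 in ROSI, 2.26, 2.06 and 2.33 in MDI and -2.54, -2.91 and -2.28 in DMSO. The 3 groups did not overlap. The difference was -3.36 ± 0.10 (adjusted p = 1.08e-17), which is 10.3-fold lower in ROSI. ROSI exceeded DMSO by 1.42, a direction that turned to -0.13 after quantile normalization. Resistin (Retn), a hormone of mouse fat cells, lay at -1.07, -1.02 and -0.96 in ROSI, 1.83, 1.93 and 1.93 in MDI and -2.19, -2.22 and -1.92 in DMSO, again without overlap. Its difference was -2.91 ± 0.083 (adjusted p = 5e-18), and its excess over DMSO in ROSI of 1.09 turned to -0.24 under the same normalization.

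**Figure D2:**
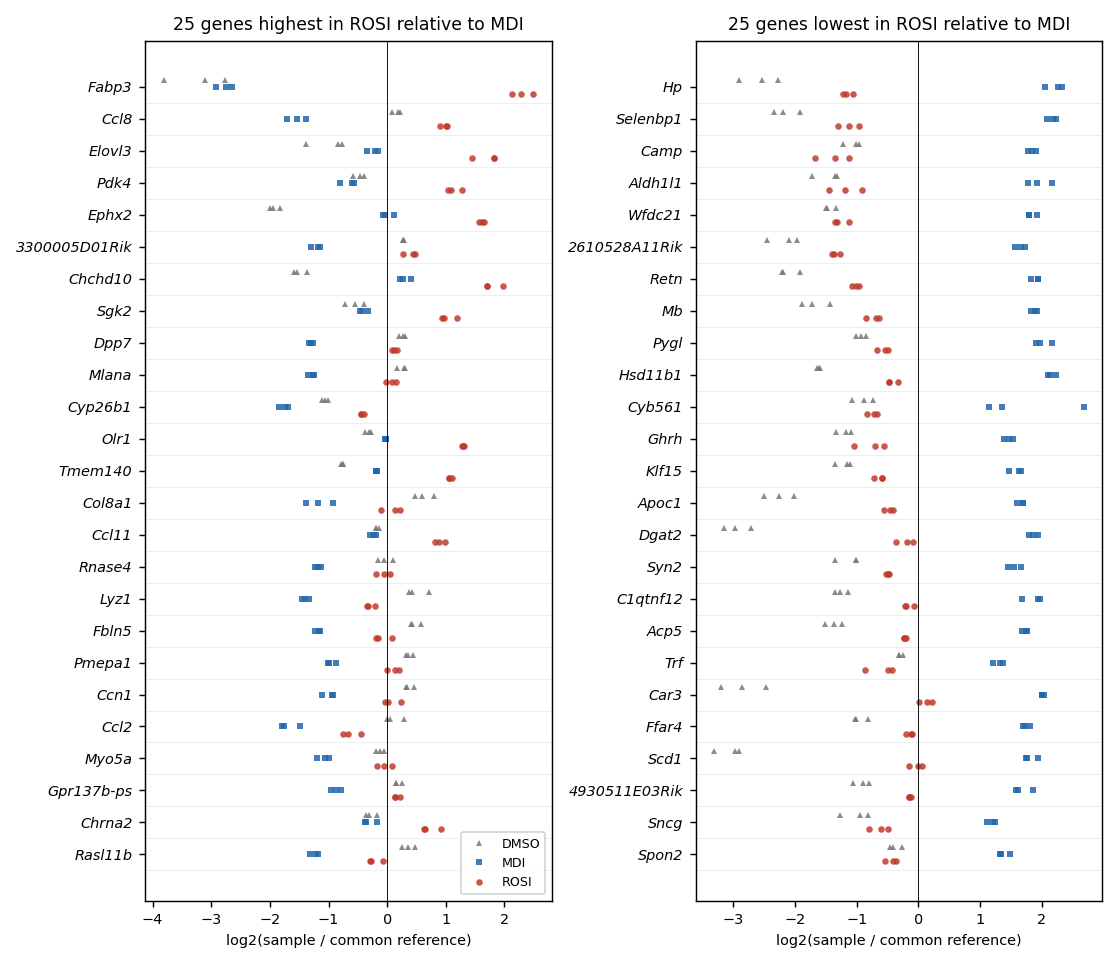
Log2 ratio to the reference of every array for the 25 genes highest (left) and the 25 lowest (right) in ROSI relative to MDI, with circles for ROSI, squares for MDI and triangles for DMSO (3 each). On the right all MDI squares lie above 1, and on the left Fabp3 is the only gene whose MDI squares lie below -2.

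Some genes of this set were not called above DMSO in ROSI. Camp, the antimicrobial peptide cathelicidin, lay at -1.13, -1.68 and -1.36 in ROSI, 1.91, 1.77 and 1.85 in MDI and -0.97, -1.23 and -1.01 in DMSO, with ROSI and DMSO overlapping. Wfdc21, a gene of the whey acidic protein family, had -1.27 ± 0.12 in ROSI, 1.83 ± 0.077 in MDI and -1.44 ± 0.089 in DMSO. Aldh1l1, a folate enzyme that oxidises formyl-tetrahydrofolate, had -1.19 ± 0.27 in ROSI, 1.96 ± 0.19 in MDI and -1.46 ± 0.23 in DMSO. Spon2, a secreted matrix protein, had -0.44 ± 0.095 in ROSI, 1.38 ± 0.091 in MDI and -0.38 ± 0.099 in DMSO, and Cyb561, an electron carrier in secretory vesicles, had -0.74 ± 0.080 in ROSI, 1.73 ± 0.83 in MDI and -0.90 ± 0.17 in DMSO. The wide spread of Cyb561 in MDI came from replicate 3 at 2.68, against 1.15 and 1.36 in the others. In ROSI against DMSO, Wfdc21, Aldh1l1, Spon2 and Cyb561 did not pass the test, with differences of 0.17, 0.28, -0.061 and 0.16. Without ROSI replicate 2 the Aldh1l1 difference was 0.41 and called. Quantile normalization gave ROSI values below DMSO in these genes, called for Wfdc21 (-0.92), Aldh1l1 (-0.84) and Spon2 (-0.29), but not for Cyb561 (-0.50).

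Others lay between the solvent and the cocktail in the deposited values. Selenbp1, a selenium-binding protein, had -1.13 ± 0.17 in ROSI, 2.17 ± 0.073 in MDI and -2.15 ± 0.21 in DMSO. Mb, the oxygen store myoglobin, had -0.72 ± 0.11 in ROSI, 1.87 ± 0.054 in MDI and -1.68 ± 0.23 in DMSO. Apoc1, an apolipoprotein, had -0.48 ± 0.080 in ROSI, 1.66 ± 0.056 in MDI and -2.26 ± 0.25 in DMSO. Car3, the carbonic anhydrase abundant in fat and muscle, had 0.12 ± 0.11 in ROSI, 2.01 ± 0.022 in MDI and -2.84 ± 0.37 in DMSO. Acp5, tartrate-resistant acid phosphatase, had -0.22 ± 0.023 in ROSI, 1.73 ± 0.041 in MDI and -1.37 ± 0.14 in DMSO, and C1qtnf12, which encodes the secreted protein adipolin, had -0.16 ± 0.082 in ROSI, 1.86 ± 0.15 in MDI and -1.26 ± 0.11 in DMSO. Ffar4, a receptor for long-chain fatty acids, had -0.14 ± 0.051 in ROSI, 1.75 ± 0.058 in MDI and -0.95 ± 0.12 in DMSO. After quantile normalization Selenbp1 lay below DMSO in ROSI (-0.29) and Mb level with it (0.015), and neither was called. In the other 5 genes ROSI remained called above DMSO, by 0.47 to 1.81.

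Among the rest of the 25, Ghrh, the growth hormone-releasing hormone gene, had -0.77 ± 0.24 in ROSI, 1.46 ± 0.079 in MDI and -1.20 ± 0.12 in DMSO. Syn2, a synapsin, had -0.50 ± 0.022 in ROSI, 1.55 ± 0.11 in MDI and -1.12 ± 0.19 in DMSO. Sncg, the synuclein that is also expressed in fat cells, had -0.64 ± 0.16 in ROSI, 1.19 ± 0.065 in MDI and -1.01 ± 0.23 in DMSO. 2610528A11Rik had -1.35 ± 0.063 in ROSI, 1.65 ± 0.085 in MDI and -2.17 ± 0.25 in DMSO, and 4930511E03Rik had -0.14 ± 0.022 in ROSI, 1.69 ± 0.15 in MDI and -0.92 ± 0.13 in DMSO. In each of these 5 genes the order was DMSO, ROSI, MDI from low to high by group mean in the deposited values. Quantile normalization put ROSI below DMSO, with a call, in 2610528A11Rik (-0.57), Ghrh (-0.39) and Sncg (-0.23), ended the call of Syn2 (0.049) and left 4930511E03Rik above DMSO (0.46).

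More core adipocyte genes were lower in ROSI than higher, and some were not called between the treatments. Against DMSO, 27 of 30 measured mature adipocyte markers were higher in ROSI and 30 of 30 in MDI, beside the 17.9% and 21.9% of all genes given above. In ROSI against MDI, 4 of the 30 were higher and 18 lower, with a median difference of -0.52 against 0.0027 for all genes. After quantile normalization 8 were higher and 15 lower, with a median of -0.21. In bulk RNA, fewer fat cells and less RNA per fat cell cannot be told apart.

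Fabp4, the fat cell fatty acid-binding protein, lay at 0.94, 1.03 and 0.96 in ROSI, 1.06, 0.83 and 1.05 in MDI and -3.38, -4.03 and -3.40 in DMSO. Its treatment arrays overlapped, and the difference was 0.0033 with a 95% interval from -0.26 to 0.26. Pck1, which feeds glycerol synthesis in fat cells, lay at 1.53, 1.66 and 1.65 in ROSI, 1.62, 1.76 and 1.90 in MDI and -2.86, -2.89 and -2.59 in DMSO, with an interval from -0.34 to 0.051. Cidec, a lipid droplet fusion protein, and Gpd1, which makes glycerol phosphate, had intervals from -0.42 to 0.096 and from -0.39 to 0.14. These genes belong to 12 picked because the interval lay within 0.5 either way of 0 and both treatments were called above DMSO, so the narrow intervals describe the choice.

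The other 8 of the 12 were Cmbl, Aldh1a7, Mmd, Adig, Slc36a2, Ppa1, Poln and Pnpla2. Pnpla2, the first lipase of triglyceride breakdown, had 0.84 ± 0.16 in ROSI, 0.63 ± 0.079 in MDI and -1.98 ± 0.33 in DMSO. Adig, a small protein of fat cells, had 1.02 ± 0.19 in ROSI, 0.99 ± 0.059 in MDI and -1.84 ± 0.13 in DMSO. Slc36a2, an amino acid transporter known from brown fat, had 1.31 ± 0.099 in ROSI, 1.19 ± 0.11 in MDI and -1.59 ± 0.28 in DMSO. Ppa1, an inorganic pyrophosphatase, had 1.36 ± 0.12 in ROSI, 1.28 ± 0.086 in MDI and -1.52 ± 0.090 in DMSO, and Cmbl, a hydrolase, had 1.48 ± 0.18 in ROSI, 1.39 ± 0.12 in MDI and -2.24 ± 0.31 in DMSO. Poln, a DNA polymerase, had 0.90 ± 0.15 in ROSI, 0.81 ± 0.048 in MDI and -1.92 ± 0.13 in DMSO. Aldh1a7 had 1.01 ± 0.079 in ROSI, 0.70 ± 0.062 in MDI and -2.14 ± 0.12 in DMSO and passed the test as higher in ROSI by 0.31 ± 0.086. Mmd had 0.97 ± 0.078 in ROSI, 1.24 ± 0.030 in MDI and -1.81 ± 0.11 in DMSO and passed as lower, by -0.27 ± 0.084. Both calls were lost without some single array, Aldh1a7 without ROSI replicate 3 or MDI replicate 1 and Mmd without any of ROSI replicates 1 and 2 and MDI replicates 1 and 3. Quantile normalization gave the 12 genes higher values in ROSI throughout, from 0.13 to 0.48, and called Adig, Cmbl, Slc36a2, Ppa1, Poln and Pnpla2 higher beside Aldh1a7.

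Pparg, Cebpa and Klf15, regulators of the fat cell programme, were lower in ROSI. Pparg, the receptor that rosiglitazone binds, lay at -0.29, -0.19 and -0.13 in ROSI, 1.18, 1.14 and 1.26 in MDI and -1.30, -1.51 and -1.24 in DMSO, without overlap. The difference was -1.39 ± 0.064 (adjusted p = 2.17e-14), or -0.85 after quantile normalization, and ROSI exceeded DMSO by 1.15, or 0.61 after that step. Cebpa, its partner factor, had 0.59 ± 0.13 in ROSI, 1.39 ± 0.13 in MDI and -0.92 ± 0.19 in DMSO, a difference of -0.80 ± 0.089 that came to -0.34 after quantile normalization. Klf15, a glucocorticoid-responsive Krüppel-like factor, lay at -0.71, -0.59 and -0.59 in ROSI, 1.63, 1.66 and 1.47 in MDI and -1.10, -1.35 and -1.16 in DMSO. Its difference was -2.22 ± 0.074, and its excess over DMSO in ROSI of 0.57 turned to -0.13 after quantile normalization. Of 29 measured adipogenic transcription factors, 3 were higher and 14 lower in ROSI, with a median of -0.15. Quantile normalization left 1 higher and 9 lower.

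The early factors had small differences. Cebpb had 0.064 ± 0.069 in ROSI, 0.39 ± 0.075 in MDI and -0.12 ± 0.072 in DMSO and Cebpd had -0.42 ± 0.11 in ROSI, 0.022 ± 0.042 in MDI and 0.45 ± 0.089 in DMSO, both lower in ROSI, and the Cebpb call was lost after quantile normalization (-0.19). Nr1h3, which encodes the oxysterol receptor LXR alpha, had 0.30 ± 0.12 in ROSI, 0.98 ± 0.086 in MDI and -1.31 ± 0.12 in DMSO, a difference of -0.67 ± 0.076 (-0.25 after quantile normalization). Zbtb16 had 0.22 ± 0.064 in ROSI, 0.57 ± 0.061 in MDI and -0.44 ± 0.033 in DMSO and lost its call after that step (-0.13). Ppargc1a, the coactivator PGC-1 alpha of mitochondrial genes, went the other way, with 0.42 ± 0.084 in ROSI, -0.24 ± 0.089 in MDI and -0.66 ± 0.13 in DMSO and a difference of 0.66 ± 0.10.

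**Figure D3:**
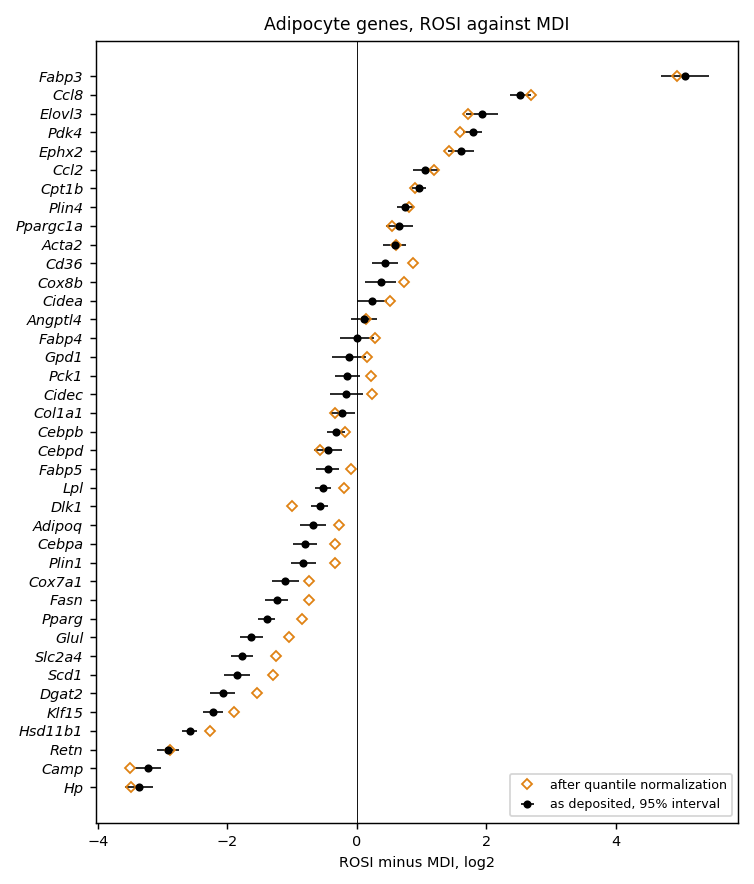
ROSI minus MDI difference (log2, x axis) of the 39 measured genes of a list of 40 adipocyte and related genes, with black points for the deposited values, bars for 95% intervals from limma's fit and open diamonds for the value after quantile normalization. In the deposited values Fabp3 to Ccl2 lie above 1, and Fabp4, Gpd1, Pck1 and Cidec lie near 0. Hp, Camp, Retn, Hsd11b1, Klf15 and Dgat2 lie below -2.

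PPAR gamma target genes did not move as a block. Of 40 measured targets, 16 were higher and 10 lower in ROSI, with a median of 0.18. Under each treatment 36 were higher than DMSO, beside 17.9% of all genes in ROSI and 21.9% in MDI. After quantile normalization 21 were higher and 5 lower, with a median of 0.25. The higher members were led by Fabp3, Elovl3, Pdk4 and Ephx2, with Cpt1b, the muscle form of the carnitine palmitoyltransferase that admits fatty acids to mitochondria. Cpt1b lay at 1.24, 1.33 and 1.45 in ROSI, 0.36, 0.28 and 0.48 in MDI and -0.52, -0.62 and -0.49 in DMSO, without overlap, a difference of 0.96 ± 0.053 (adjusted p = 5.96e-13). Plin4, a lipid droplet coat protein, had 1.33 ± 0.055 in ROSI, 0.59 ± 0.10 in MDI and -1.40 ± 0.085 in DMSO. Agpat2, an acyltransferase of triglyceride assembly, had 1.15 ± 0.032 in ROSI, 0.54 ± 0.055 in MDI and -1.88 ± 0.27 in DMSO, although its probes gave 0.33 and 0.89 apart. Retsat, a retinol saturase, had 1.18 ± 0.17 in ROSI, 0.68 ± 0.10 in MDI and -1.52 ± 0.15 in DMSO, and Cd36, the fatty acid translocase, had 1.75 ± 0.055 in ROSI, 1.31 ± 0.058 in MDI and -2.87 ± 0.17 in DMSO. The Cd36 difference of 0.44 ± 0.099 came to 0.87 after quantile normalization.

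The lower targets held storage and lipolysis genes. Mgll, which cleaves monoglycerides, had 0.25 ± 0.14 in ROSI, 1.55 ± 0.064 in MDI and -1.16 ± 0.10 in DMSO. Plin1, the perilipin that guards the fat droplet, had 0.51 ± 0.093 in ROSI, 1.34 ± 0.079 in MDI and -2.27 ± 0.070 in DMSO. Adipoq, the hormone adiponectin, lay at 0.82, 0.88 and 0.96 in ROSI, 1.58, 1.55 and 1.57 in MDI and -2.69, -2.78 and -2.52 in DMSO. The 3 groups of Adipoq did not overlap, but its difference of -0.68 ± 0.098 fell to -0.27 after quantile normalization and was no longer called. Lpl, the lipase that frees fatty acids from lipoproteins, had 0.28 ± 0.055 in ROSI, 0.80 ± 0.072 in MDI and -1.12 ± 0.061 in DMSO, and Fabp5 had 0.55 ± 0.12 in ROSI, 1.00 ± 0.045 in MDI and -1.58 ± 0.085 in DMSO. The quantile-normalized differences were -0.75 for Mgll, -0.33 for Plin1, -0.20 for Lpl and -0.083 for Fabp5, and the Fabp5 call was lost. Angptl4, a lipase inhibitor, had 0.39 ± 0.014 in ROSI, 0.28 ± 0.019 in MDI and -1.25 ± 0.26 in DMSO and was not called, with a 95% interval from -0.091 to 0.32.

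Genes of mitochondrial fatty acid oxidation and of fatty acid synthesis leaned opposite ways. Of 28 measured genes of mitochondrial fatty acid oxidation, 12 were higher and 4 lower in ROSI, with a median of 0.11. After quantile normalization 17 were higher and none lower. The 4 lower calls came to 2 without ROSI replicate 1, MDI replicate 1 or MDI replicate 3. Beside Cpt1b and Pdk4, the higher members were led by Mlycd, Acaa2 and Acadl. Mlycd, which removes the malonyl-CoA that blocks carnitine transfer, had 1.14 ± 0.077 in ROSI, 0.40 ± 0.14 in MDI and -0.77 ± 0.075 in DMSO. The thiolase Acaa2 had 1.41 ± 0.072 in ROSI, 0.85 ± 0.060 in MDI and -1.20 ± 0.053 in DMSO, and the long-chain dehydrogenase Acadl had 0.71 ± 0.059 in ROSI, 0.27 ± 0.029 in MDI and -0.58 ± 0.024 in DMSO. Etfb, an electron carrier from the dehydrogenases, was lower, with 0.43 ± 0.13 in ROSI, 1.00 ± 0.026 in MDI and -0.65 ± 0.17 in DMSO, a call that quantile normalization removed (-0.16).

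Of 21 peroxisomal genes, 5 were higher and 3 lower, with 1 lower after quantile normalization and 3 higher without ROSI replicate 3 or MDI replicate 1. Acaa1b, a peroxisomal thiolase, had 0.85 ± 0.11 in ROSI, 0.23 ± 0.041 in MDI and -0.73 ± 0.11 in DMSO, and Abcd3, a transporter of the peroxisomal membrane, had 0.29 ± 0.11 in ROSI, 0.046 ± 0.052 in MDI and -0.42 ± 0.027 in DMSO. The lower members were Pxmp2 with -0.16 ± 0.35 in ROSI, 0.87 ± 0.15 in MDI and -0.38 ± 0.051 in DMSO, Pex11a with 0.46 ± 0.072 in ROSI, 0.95 ± 0.030 in MDI and -1.57 ± 0.11 in DMSO and the sterol carrier Scp2 with 0.62 ± 0.032 in ROSI, 1.09 ± 0.062 in MDI and -0.93 ± 0.056 in DMSO. Quantile normalization removed the calls of Pex11a (-0.12) and Scp2 (-0.069) and gave -0.66 for Pxmp2.

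Of 27 fatty acid synthesis genes, 6 were higher and 16 lower in ROSI, with a median of -0.26 (-0.081 after quantile normalization). Scd1, the desaturase that makes oleate, lay at -0.15, 0.053 and -0.0077 in ROSI, 1.75, 1.76 and 1.93 in MDI and -2.97, -3.31 and -2.90 in DMSO, a difference of -1.85 ± 0.094 (adjusted p = 1.39e-13). Fasn, the fatty acid synthase, had -0.16 ± 0.078 in ROSI, 1.08 ± 0.18 in MDI and -0.90 ± 0.14 in DMSO. Thrsp, a small regulator of lipogenesis, had -0.28 ± 0.10 in ROSI, 1.26 ± 0.060 in MDI and -2.41 ± 0.29 in DMSO, and Acly, which supplies acetyl-CoA from citrate, had -0.0073 ± 0.11 in ROSI, 1.07 ± 0.12 in MDI and -0.72 ± 0.090 in DMSO. The differences of Fasn, Thrsp and Acly were -1.24 ± 0.087, -1.54 ± 0.10 and -1.08 ± 0.067, or -0.74, -1.02 and -0.56 after quantile normalization. Fads3, a desaturase family member, was higher beside Elovl3, with 0.38 ± 0.056 in ROSI, -0.24 ± 0.029 in MDI and -0.082 ± 0.047 in DMSO.

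In triglyceride assembly 4 of 18 genes were higher and 4 lower, with a median of -0.017, and quantile normalization gave 3 higher and 2 lower with a median of 0.13. Dgat2, which adds the last fatty acid, lay at -0.36, -0.18 and -0.086 in ROSI, 1.86, 1.80 and 1.93 in MDI and -2.97, -3.16 and -2.71 in DMSO, a difference of -2.07 ± 0.091 (adjusted p = 9.37e-15). Lpin1, a phosphatidate phosphatase, had 0.26 ± 0.037 in ROSI, 0.70 ± 0.070 in MDI and -0.65 ± 0.084 in DMSO, and its lower value rested on probes that gave -0.74 and -0.14. Its difference of -0.44 ± 0.044 came to -0.17 after quantile normalization. Gpat4 was higher, with 0.34 ± 0.065 in ROSI, 0.15 ± 0.024 in MDI and -0.37 ± 0.074 in DMSO. Of 20 droplet and lipolysis genes, 4 were higher and 9 lower, with a median of -0.14 that turned to 0.092 after quantile normalization, when 9 were higher and 7 lower. Pde3b, the phosphodiesterase through which insulin restrains lipolysis, had 0.26 ± 0.058 in ROSI, 1.03 ± 0.043 in MDI and -0.86 ± 0.063 in DMSO, and Cideb had -0.024 ± 0.18 in ROSI, 0.57 ± 0.11 in MDI and -0.39 ± 0.089 in DMSO. Their differences were -0.30 and -0.34 after quantile normalization.

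Most genes of glucose handling had lower RNA levels in ROSI than in MDI. Of 30 measured genes of glucose transport, glycogen and glycolysis, 1 was higher and 20 were lower, with a median of -0.51, and after quantile normalization 2 were higher and 17 lower, with a median of -0.24. Slc2a4, the insulin-responsive glucose transporter GLUT4, lay at 0.035, 0.17 and 0.26 in ROSI, 1.84, 1.93 and 2.01 in MDI and -2.72, -2.94 and -2.48 in DMSO. Its groups did not overlap, and the difference was -1.77 ± 0.082 (adjusted p = 2.47e-14). Pygl, the liver form of glycogen phosphorylase, lay at -0.53, -0.67 and -0.50 in ROSI, 1.91, 2.17 and 1.97 in MDI and -1.02, -0.94 and -0.86 in DMSO, a difference of -2.59 ± 0.074. Ldha, which turns pyruvate into lactate, had 0.27 ± 0.086 in ROSI, 1.49 ± 0.044 in MDI and -0.66 ± 0.051 in DMSO. The aldolase Aldoc had -0.30 ± 0.12 in ROSI, 1.02 ± 0.087 in MDI and -0.34 ± 0.097 in DMSO, the triose isomerase Tpi1 had 0.48 ± 0.081 in ROSI, 1.47 ± 0.070 in MDI and -0.32 ± 0.092 in DMSO and the glycogen branching enzyme Gbe1 had 0.13 ± 0.0050 in ROSI, 0.96 ± 0.054 in MDI and -0.66 ± 0.054 in DMSO. After quantile normalization the differences of Ldha, Tpi1 and Gbe1 were -0.68, -0.48 and -0.54, and the Gbe1 probes gave -1.50 and -0.14.

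**Figure D4:**
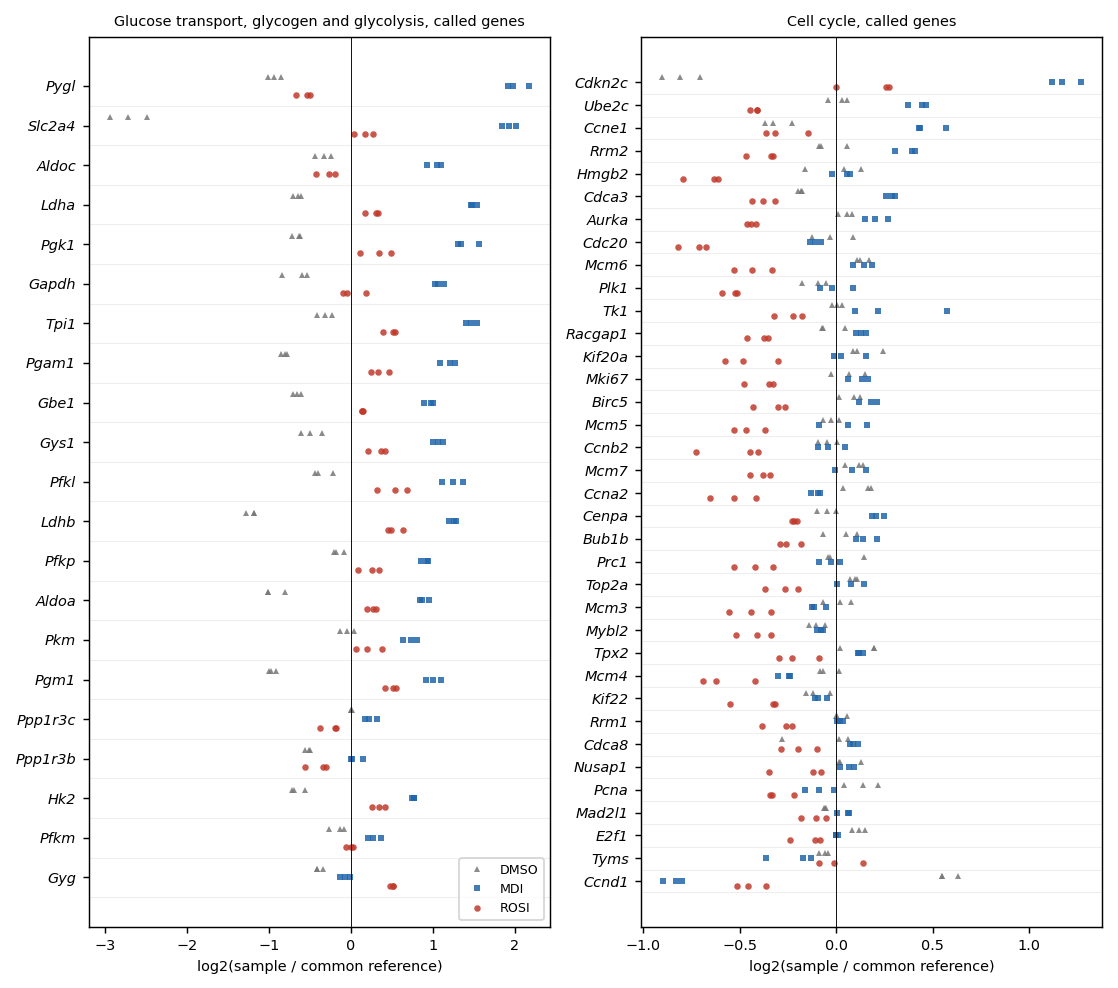
Log2 ratio to the reference of every array for the called genes of glucose transport, glycogen and glycolysis (left, 21 genes) and of the cell cycle (right, 36 genes), with circles for ROSI, squares for MDI and triangles for DMSO. On the left ROSI mostly lies between DMSO and MDI, and on the right ROSI mostly lies below both.

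For the respiratory chain and the citric acid cycle, the direction between the treatments turned with the normalization. Of 77 oxidative phosphorylation genes, 3 were higher and 25 lower in ROSI, with a median of -0.12, but quantile normalization gave 8 higher and 1 lower with a median of 0.044. The lower calls came to 16 without MDI replicate 3 and 13 in a fit of the compared groups alone, and the higher ones to 1 without ROSI replicates 2 or 3 or MDI replicate 1. Both treatments stood above DMSO, with 77 of 77 genes higher in ROSI and 75 in MDI, beside 17.9% and 21.9% of all genes. Cox7a1, a muscle and brown fat subunit of cytochrome oxidase, was lower in ROSI, with 0.90 ± 0.080 in ROSI, 2.0 ± 0.092 in MDI and -2.90 ± 0.25 in DMSO and a difference of -1.10 ± 0.10. The related isoforms Cox8b and Cox6a2 were higher, with 1.65 ± 0.23 in ROSI, 1.28 ± 0.076 in MDI and -3.27 ± 0.18 in DMSO and 0.55 ± 0.12 in ROSI, -0.17 ± 0.027 in MDI and 0.014 ± 0.021 in DMSO. The Cox8b difference was 0.37 ± 0.12 (0.73 after quantile normalization), and its call was lost without ROSI replicates 2 or 3 or MDI replicates 1 or 3 and in a fit of the compared groups alone. Ndufb3, Ndufs4, Cox5b and Sdhb had differences of -0.41 ± 0.069, -0.28 ± 0.047, -0.37 ± 0.052 and -0.25 ± 0.035, and quantile normalization removed each of these calls, with values of -0.098, -0.12, -0.086 and -0.021. Their DMSO means were -0.43, -0.14, -0.51 and -0.55.

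Of 30 genes of the citric acid cycle and pyruvate entry, 3 were higher and 14 lower, against 5 and 2 after quantile normalization, and 9 were lower without MDI replicate 3. Within them the pyruvate dehydrogenase kinases diverged. Pdk4 was higher in ROSI, whereas Pdk1 had 0.14 ± 0.10 in ROSI, 1.15 ± 0.059 in MDI and -0.42 ± 0.071 in DMSO and Pdk3 had -0.26 ± 0.091 in ROSI, 0.19 ± 0.045 in MDI and 0.094 ± 0.073 in DMSO, both lower. Pdk1 kept its call after quantile normalization, with -0.47. Fh1 and Suclg1, enzymes of the cycle, had differences of -0.45 ± 0.055 and -0.40 ± 0.062, DMSO means of -0.69 and -0.73, and values of -0.10 and -0.011 without a call after that step. Of 19 brown fat and muscle type oxidative genes, 7 were higher and 3 lower. Cidea, known from brown fat, had 1.29 ± 0.17 in ROSI, 1.06 ± 0.11 in MDI and -1.43 ± 0.27 in DMSO and was not called, with an interval from -0.00046 to 0.46, but was called at 0.52 after quantile normalization.

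Of 25 measured genes of branched-chain amino acid breakdown, 19 were lower in ROSI and 0 higher by limma's test, with a median of -0.29. At an unadjusted p under 0.05, 20 were lower and 0 higher, and after quantile normalization 1 was higher and 7 lower, with a median of -0.090. Ivd, which acts on the leucine branch, had -0.38 ± 0.083 in ROSI, 0.45 ± 0.041 in MDI and -0.60 ± 0.12 in DMSO, and Hibch, which acts on the valine branch, had 0.35 ± 0.036 in ROSI, 1.09 ± 0.081 in MDI and -0.85 ± 0.038 in DMSO. Pcca, Mccc1 and Acadsb had DMSO means of -0.47, -0.61 and -0.14 and differences of -0.50 ± 0.061, -0.43 ± 0.052 and -0.44 ± 0.049. Mmut, at -0.74 in DMSO, had a difference of -0.43 ± 0.048 and lost its call after quantile normalization (-0.11). The same step gave -0.27 for Hibch, -0.26 for Pcca, -0.25 for Mccc1 and -0.18 for Acadsb. The 22 members higher than DMSO in ROSI and the 23 in MDI stood beside 17.9% and 21.9% of all genes.

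Genes known to respond to glucocorticoids were mostly higher under MDI, whose cells had received dexamethasone for the first 48 h. Of 27 measured, 2 were higher and 17 lower in ROSI, with a median of -0.31 (-0.18 with 1 higher and 13 lower after quantile normalization). Hsd11b1, which regenerates active corticosterone inside the cell, lay at -0.48, -0.48 and -0.32 in ROSI, 2.13, 2.10 and 2.24 in MDI and -1.61, -1.64 and -1.59 in DMSO, without overlap. Its difference was -2.58 ± 0.054 (adjusted p = 1.11e-20), and ROSI lay above DMSO by 1.18, or 0.45 after quantile normalization. Glul, the glutamine synthetase, had -0.14 ± 0.099 in ROSI, 1.49 ± 0.081 in MDI and -1.35 ± 0.13 in DMSO. Orm1, an acute phase plasma protein, had 0.17 ± 0.069 in ROSI, 1.69 ± 0.039 in MDI and -1.65 ± 0.26 in DMSO. Sult1a1, a sulfotransferase, had -0.50 ± 0.086 in ROSI, 0.92 ± 0.11 in MDI and -0.72 ± 0.096 in DMSO, and Errfi1, an inhibitor of the EGF receptor, had -0.41 ± 0.090 in ROSI, 0.94 ± 0.17 in MDI and -0.12 ± 0.046 in DMSO. Quantile normalization gave -1.05 for Glul and -0.94 for Orm1, and put Sult1a1 in ROSI below DMSO without a call (-0.16). Pdk4, which the same list holds as a glucocorticoid target, was higher in ROSI.

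In the cyclic AMP list 5 of 20 genes were higher and 7 lower. Rgs2, a regulator of G protein signalling, had -0.22 ± 0.14 in ROSI, 0.72 ± 0.096 in MDI and -0.31 ± 0.11 in DMSO, and the orphan receptor Nr4a1 had -0.12 ± 0.095 in ROSI, 0.60 ± 0.043 in MDI and 0.32 ± 0.070 in DMSO, or a difference of -0.47 between the treatments after quantile normalization, when its excess over DMSO in MDI was lost (-0.035). Atf3 had 0.31 ± 0.071 in ROSI, -0.073 ± 0.075 in MDI and 0.16 ± 0.095 in DMSO, higher in ROSI. Of 24 insulin signalling genes, 2 were higher and 6 lower, beside 10.9% and 11.7% of all genes. Cav1 and Cav2, the caveolins of fat cell membranes, had -0.042 ± 0.061 in ROSI, 1.00 ± 0.12 in MDI and -0.90 ± 0.23 in DMSO and 0.45 ± 0.060 in ROSI, 1.32 ± 0.046 in MDI and -0.88 ± 0.036 in DMSO. Foxo1 had 0.016 ± 0.061 in ROSI, 0.40 ± 0.045 in MDI and -0.16 ± 0.040 in DMSO, and Igf1r, the receptor of insulin-like growth factor 1, was higher in ROSI with -0.046 ± 0.065 in ROSI, -0.48 ± 0.10 in MDI and 0.34 ± 0.14 in DMSO. The differences of Cav1, Cav2 and Foxo1 came to -0.58, -0.38 and -0.24 after quantile normalization.

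Secreted proteins of fat cells were lower in 16 of 25 and higher in 5. Beside Hp and Retn, the leading members were Rarres2 (chemerin) with 0.45 ± 0.16 in ROSI, 1.74 ± 0.096 in MDI and -1.56 ± 0.076 in DMSO, Lcn2 (lipocalin 2, an iron-sequestering acute phase protein) with -0.68 ± 0.18 in ROSI, 0.57 ± 0.075 in MDI and -0.32 ± 0.060 in DMSO, and Apln (apelin) with 0.11 ± 0.11 in ROSI, 1.00 ± 0.026 in MDI and -0.31 ± 0.075 in DMSO. Quantile normalization gave a difference of -0.79 for Rarres2 and -0.42 for Apln, and left 12 lower and 2 higher. The higher calls came to 3 without ROSI replicate 2 and 2 without MDI replicate 3. In the list of LXR and apolipoprotein genes, 1 of 21 was higher and 10 were lower. Apoe had -0.45 ± 0.14 in ROSI, 0.45 ± 0.098 in MDI and -0.54 ± 0.082 in DMSO, and Apoc2, the activator of lipoprotein lipase, had -0.67 ± 0.16 in ROSI, 1.14 ± 0.16 in MDI and -1.22 ± 0.072 in DMSO. The excess of Apoc2 over DMSO in ROSI, 0.55, turned to -0.20 after quantile normalization. Genes of cholesterol synthesis leaned the other way, with 8 of 23 higher and 2 lower and a median of 0.10. Sc5d, a late enzyme of the pathway, had 0.42 ± 0.041 in ROSI, -0.099 ± 0.066 in MDI and -0.26 ± 0.11 in DMSO. Insig1, which holds the sterol sensor in the endoplasmic reticulum, had 0.68 ± 0.15 in ROSI, 0.28 ± 0.050 in MDI and -0.59 ± 0.17 in DMSO, and its relative Insig2 was lower with -0.012 ± 0.056 in ROSI, 0.35 ± 0.068 in MDI and -0.29 ± 0.045 in DMSO. Pmvk, an early enzyme of the pathway, had 0.87 ± 0.094 in ROSI, 1.16 ± 0.099 in MDI and -1.12 ± 0.081 in DMSO and a called difference of -0.28 ± 0.058 that turned to 0.11 after quantile normalization.

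Many cell cycle genes were lower in ROSI than in both other groups. Of 57 measured, 2 were higher and 34 lower than in MDI, with a median of -0.31, and quantile normalization gave 1 and 36. Against DMSO, 2 were higher and 40 lower in ROSI, beside 17.9% and 15.5% of all genes. In MDI 9 were higher and 10 lower, which lay below the 21.9% and 19.6% of all genes. Ube2c, which drives the exit from mitosis, lay at -0.41, -0.41 and -0.44 in ROSI, 0.47, 0.37 and 0.44 in MDI and 0.057, -0.044 and 0.029 in DMSO, a difference of -0.85 ± 0.054 (adjusted p = 1.09e-11). Aurka, a mitotic kinase, lay at -0.46, -0.44 and -0.42, 0.27, 0.15 and 0.20 and 0.059, 0.010 and 0.082 in the same order. In both genes ROSI lay below the other groups without overlap and MDI lay above DMSO. The chromatin protein Hmgb2 had -0.68 ± 0.099 in ROSI, 0.037 ± 0.049 in MDI and 0.0013 ± 0.15 in DMSO, and cyclin E1 (Ccne1) had -0.28 ± 0.11 in ROSI, 0.48 ± 0.077 in MDI and -0.31 ± 0.073 in DMSO. Cdca3 had -0.38 ± 0.059 in ROSI, 0.28 ± 0.024 in MDI and -0.18 ± 0.0093 in DMSO, and the cytokinesis protein Racgap1 had -0.40 ± 0.058 in ROSI, 0.13 ± 0.024 in MDI and -0.032 ± 0.068 in DMSO. The mean ratio of the list was -0.24, -0.30 and -0.26 in the ROSI arrays, 0.056, 0.037 and 0.025 in MDI and 0.044, 0.00051 and 0.013 in DMSO.

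Many genes of the undifferentiated state were below DMSO in both treatments, and the treatments differed in some of them. Of 32 preadipocyte genes and brakes on differentiation, 23 were lower than DMSO in ROSI and 22 in MDI, beside 15.5% and 19.6% of all genes. In ROSI against MDI, 12 were higher and 5 lower. Dlk1, the preadipocyte marker Pref-1, lay at -0.83, -0.85 and -0.80 in ROSI, -0.25, -0.24 and -0.26 in MDI and 0.17, 0.20 and 0.29 in DMSO, without overlap and with ROSI lowest. Its difference of -0.57 ± 0.063 (adjusted p = 1.36e-07) came to -0.99 after quantile normalization. Id2, a dimerisation inhibitor, had -0.18 ± 0.14 in ROSI, -1.11 ± 0.22 in MDI and 0.47 ± 0.22 in DMSO. Ccn5, a matricellular protein also called Wisp2, had -0.11 ± 0.026 in ROSI, -1.03 ± 0.046 in MDI and 0.59 ± 0.11 in DMSO, and Twist2 had -0.27 ± 0.084 in ROSI, -0.91 ± 0.092 in MDI and -0.049 ± 0.12 in DMSO. In Id2, Ccn5 and Twist2, MDI was the lowest group.

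Collagens and matrix genes split, with 15 of 51 higher and 12 lower in ROSI than in MDI. Below DMSO were 33 of them in ROSI and 34 in MDI, beside 15.5% and 19.6% of all genes. Nid2, a basement membrane linker, had -0.73 ± 0.066 in ROSI, 0.73 ± 0.024 in MDI and -0.22 ± 0.13 in DMSO. Col18a1, the chain that holds endostatin, had -0.33 ± 0.023 in ROSI, 0.74 ± 0.027 in MDI and -0.096 ± 0.12 in DMSO, and Lum (lumican) had -0.17 ± 0.048 in ROSI, 0.73 ± 0.030 in MDI and -0.29 ± 0.14 in DMSO, a difference of -0.60 after quantile normalization. Thbs2 had -0.062 ± 0.055 in ROSI, -0.81 ± 0.095 in MDI and 0.19 ± 0.063 in DMSO and Col11a1 had 0.099 ± 0.15 in ROSI, -0.59 ± 0.048 in MDI and 0.37 ± 0.096 in DMSO, both higher in ROSI. The call of Col12a1, higher in ROSI at 0.66 ± 0.085 over its probes, was not kept when probes were taken apart, which gave 0.028 and 1.29, and its DMSO mean was 0.039. Col1a1 had -0.36 ± 0.18 in ROSI, -0.14 ± 0.027 in MDI and 0.27 ± 0.043 in DMSO and was not called, except without ROSI replicate 1. Of 37 contractile genes, 5 were higher and 4 lower, near the 10.9% and 11.7% of all genes (3 and 5 after quantile normalization). Among them Acta2, the smooth muscle actin, had -0.70 ± 0.10 in ROSI, -1.28 ± 0.12 in MDI and 0.51 ± 0.073 in DMSO.

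Some genes lay on opposite sides of DMSO in the treatments. They were picked for calls against DMSO in opposite directions, so their directions describe the choice. Above DMSO in ROSI and below in MDI were Ccl8 and Cyp26b1, already described, with Clca3a2, Maoa, Cox6a2, Hsd17b11, Arhgef6, Mcoln1, Plekhm2 and Sgpl1. Maoa, which oxidises monoamines, had 0.29 ± 0.026 in ROSI, -0.71 ± 0.085 in MDI and -0.067 ± 0.061 in DMSO. Hsd17b11, a lipid droplet dehydrogenase, had 0.39 ± 0.11 in ROSI, -0.33 ± 0.028 in MDI and -0.030 ± 0.20 in DMSO. Clca3a2 had 0.37 ± 0.11 in ROSI, -0.65 ± 0.18 in MDI and -0.099 ± 0.063 in DMSO, and Arhgef6 had 0.41 ± 0.042 in ROSI, -0.29 ± 0.031 in MDI and 0.14 ± 0.10 in DMSO. Mcoln1, a lysosomal channel, had 0.40 ± 0.042 in ROSI, -0.29 ± 0.076 in MDI and 0.26 ± 0.010 in DMSO, Plekhm2 had 0.27 ± 0.070 in ROSI, -0.42 ± 0.039 in MDI and 0.15 ± 0.057 in DMSO and Sgpl1, which cleaves sphingosine phosphate, had 0.14 ± 0.040 in ROSI, -0.51 ± 0.10 in MDI and -0.040 ± 0.080 in DMSO. The excess of ROSI over DMSO in Cyp26b1, Mcoln1, Plekhm2 and Sgpl1 was not called after quantile normalization, and the last 3 of these calls were also lost without some single array. For Mcoln1 these were ROSI replicates 1 and 2 and each DMSO replicate, for Plekhm2 ROSI replicates 2 and 3 and DMSO replicates 1 and 3, and for Sgpl1 ROSI replicate 2 and DMSO replicates 1 and 2. The Cox6a2 value below DMSO in MDI, -0.18, was not called without MDI replicates 2 or 3 or DMSO replicates 2 or 3. Quantile normalization gave 0.14 in ROSI and -1.41 in MDI against DMSO for Cyp26b1.

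Below DMSO in ROSI and above in MDI were Camp, Trf, Cyp2f2, Nid2, Errfi1, Olfml2b, Lcn2, Cpz, Ly6c1 and Igfbp4. Trf, the iron carrier transferrin, had -0.59 ± 0.24 in ROSI, 1.30 ± 0.081 in MDI and -0.30 ± 0.034 in DMSO. Cyp2f2, a cytochrome P450, had -1.08 ± 0.048 in ROSI, 0.71 ± 0.082 in MDI and -0.45 ± 0.091 in DMSO. Olfml2b had -0.55 ± 0.077 in ROSI, 0.71 ± 0.047 in MDI and 0.10 ± 0.026 in DMSO, the carboxypeptidase Cpz had -0.70 ± 0.021 in ROSI, 0.48 ± 0.065 in MDI and 0.32 ± 0.12 in DMSO, Ly6c1 had -0.47 ± 0.061 in ROSI, 0.65 ± 0.076 in MDI and 0.086 ± 0.087 in DMSO and Igfbp4, which binds insulin-like growth factors, had -0.23 ± 0.084 in ROSI, 0.86 ± 0.055 in MDI and 0.11 ± 0.14 in DMSO. The Cpz excess in MDI of 0.16 turned to -0.087 after quantile normalization and was not called without MDI replicates 1 or 3 or DMSO replicate 1, the last giving 0.090. The Camp and Trf values below DMSO in ROSI were -0.32 and -0.30, and without ROSI replicate 2 they were -0.17 and -0.16 and not called. These calls were also lost without DMSO replicates 1 or 3 for Camp and 1 or 2 for Trf, and the Errfi1 value of -0.29 was not called without ROSI replicates 2 or 3 or DMSO replicate 1. After quantile normalization ROSI lay further below DMSO, at -1.54 in Camp, -0.61 in Trf, -1.25 in Cyp2f2, -0.91 in Nid2, -0.77 in Lcn2 and -0.44 in Errfi1. The excess of MDI shrank, to 0.94 in Trf, 0.72 in Cyp2f2, 0.57 in Nid2, 0.60 in Errfi1, 0.28 in Olfml2b, 0.57 in Lcn2, 0.26 in Ly6c1 and 0.32 in Igfbp4, all still called.

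**Figure D5:**
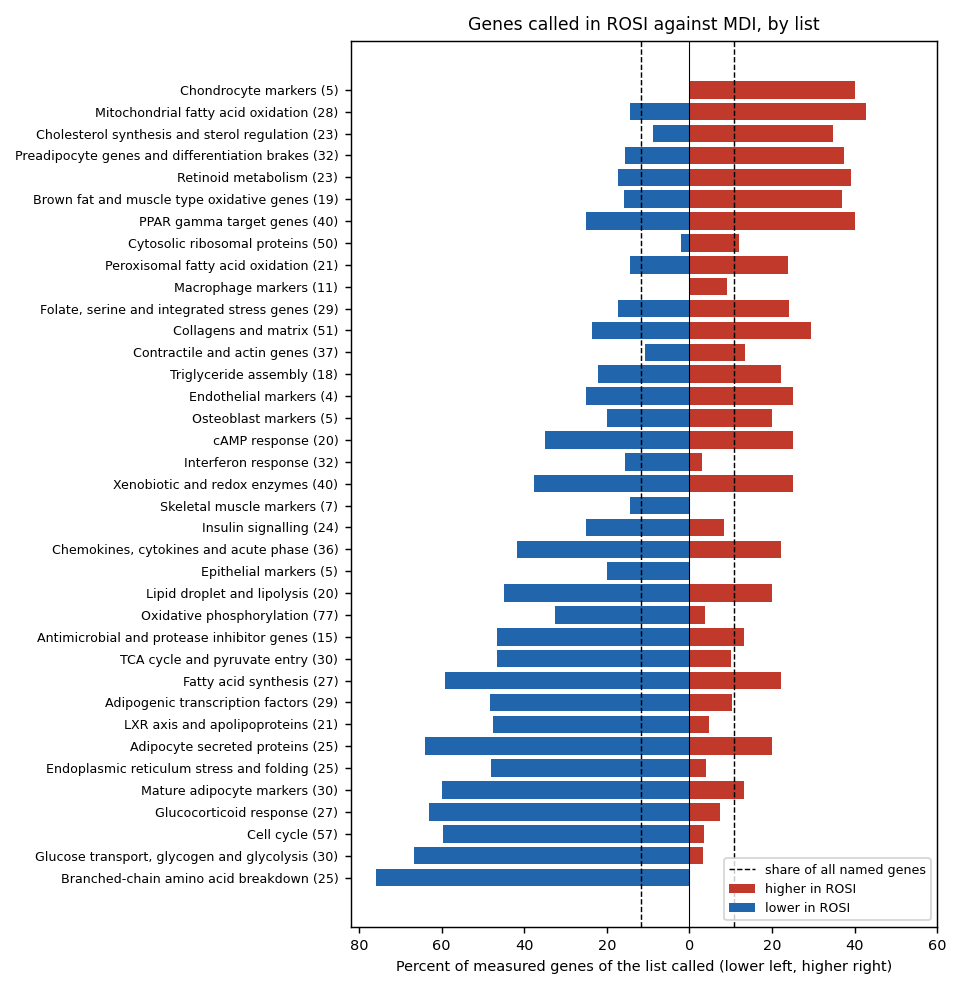
Share of the measured genes of each list (number in brackets) called lower (left, blue) or higher (right, red) in ROSI than in MDI, with dashed lines for the shares of all named genes, 11.7% lower and 10.9% higher. The lists with the greatest lower shares are branched-chain amino acid breakdown, 19 of 25, and glucose transport, glycogen and glycolysis, 20 of 30.

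In each list of inflammatory, antimicrobial, interferon and endoplasmic reticulum stress genes, more genes were lower than higher in ROSI. Of 36 chemokine, cytokine and acute phase genes, 8 were higher and 15 lower in ROSI, the higher ones led by Ccl8, Ccl11, Ccl2 and Ccl7. Of 15 antimicrobial and protease inhibitor genes, 2 were higher and 7 lower. S100a8, a calcium-binding protein of neutrophils, had -0.28 ± 0.11 in ROSI, 0.71 ± 0.023 in MDI and -0.19 ± 0.11 in DMSO. Of 32 interferon response genes, 1 was higher and 5 were lower, beside 10.9% and 11.7% of all genes. The lower ones were led by the exonuclease Isg20 with -0.14 ± 0.069 in ROSI, 0.80 ± 0.046 in MDI and -0.21 ± 0.043 in DMSO. Gbp2, also lower, had -0.052 ± 0.073 in ROSI, 0.52 ± 0.031 in MDI and -0.38 ± 0.026 in DMSO. Ifi27l2a was higher, with 1.56 ± 0.12 in ROSI, 0.97 ± 0.044 in MDI and -2.91 ± 0.14 in DMSO. Quantile normalization gave differences of -0.58, -0.38 and 0.90 for Isg20, Gbp2 and Ifi27l2a. The mean ratio of the interferon list was 0.14, -0.24 and -0.13 in the ROSI arrays and 0.17, -0.066 and -0.074 in MDI. In DMSO it was -0.14, -0.21 and -0.089. Replicate 1 was thus the highest array of this list in ROSI and in MDI. Of 25 genes of folding and stress in the endoplasmic reticulum, 1 was higher and 12 lower. The oxidase Ero1a had 0.040 ± 0.010 in ROSI, 1.31 ± 0.12 in MDI and -0.32 ± 0.089 in DMSO, the transcription factor Xbp1 had 0.0058 ± 0.10 in ROSI, 1.03 ± 0.12 in MDI and -0.34 ± 0.030 in DMSO and the chaperone Hspa5 had -0.23 ± 0.088 in ROSI, 0.22 ± 0.028 in MDI and -0.27 ± 0.081 in DMSO. Their quantile-normalized differences were -0.68, -0.54 and -0.42, and the list then had 1 higher and 6 lower.

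Of 40 xenobiotic and redox enzymes, 10 were higher and 15 lower, the latter led by Selenbp1, Cyp2f2, Sult1a1 and Gstz1, which had -0.024 ± 0.13 in ROSI, 1.38 ± 0.13 in MDI and -1.12 ± 0.17 in DMSO. Of 23 retinoid genes, 9 were higher and 4 lower, with 6 and 2 after quantile normalization and 5 higher without ROSI replicate 3 or MDI replicate 1. The reductase Dhrs4 had 1.01 ± 0.14 in ROSI, 0.53 ± 0.068 in MDI and -0.41 ± 0.039 in DMSO, and Rara, a retinoic acid receptor, was lower with -0.34 ± 0.020 in ROSI, 0.24 ± 0.038 in MDI and 0.021 ± 0.048 in DMSO. Of 29 folate, serine and stress genes, 7 were higher and 5 lower, and Psat1, a serine synthesis enzyme, had 0.061 ± 0.090 in ROSI, 0.67 ± 0.058 in MDI and -0.27 ± 0.13 in DMSO. In this list 3 were higher and 3 lower after quantile normalization and without ROSI replicate 2, and 3 were higher without MDI replicate 3. The quantile-normalized differences of Gstz1 and Psat1 were -0.82 and -0.31. Of 50 cytosolic ribosomal proteins, 6 were higher and 1 lower, beside 10.9% and 11.7% of all genes. Their median was -0.0055, and 1 was higher and 4 lower after quantile normalization. Without MDI replicate 3, 3 were higher, and without ROSI replicate 3, 5 were lower.

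Of 37 markers of other cell types 9 were called between the treatments (24.3%), beside 22.6% of all genes. Of 11 macrophage markers, Cd68 was called, higher in ROSI, with 0.13 ± 0.10 in ROSI, -0.058 ± 0.12 in MDI and -0.052 ± 0.0034 in DMSO, and the call was lost without ROSI replicate 3 or MDI replicate 3 and when the fit held only the ROSI and MDI arrays. The mean ratio of the macrophage list was 0.047, 0.023 and 0.074 in the ROSI arrays, -0.036, -0.0069 and 0.094 in MDI and 0.13, 0.15 and 0.11 in DMSO. The chemokine differences thus stood beside macrophage markers of which 1 of 11 was called. The samples are of a clonal preadipocyte line, so these markers are given as gene levels and not as a share of macrophages. Of 4 endothelial markers 1 was higher and 1 lower, of 7 skeletal muscle markers 1 was lower, of 5 osteoblast markers 1 was higher and 1 lower, of 5 chondrocyte markers 2 were higher, and of 5 epithelial markers 1 was lower. Alpl, an osteoblast marker that fat cells also express, had 0.016 ± 0.073 in ROSI, 0.83 ± 0.12 in MDI and -0.77 ± 0.19 in DMSO, a difference of -0.81 ± 0.087 (-0.44 after quantile normalization).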

How the data were processed

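RNA was measured on 30 arrays with 2 colours, 10 groups of 3. The submitters' processing notes name limma without a version. Background correction and normalization are not given in the sources used here. The values deposited for each probe give reference over sample as a log ratio, read as log2 because differences from DMSO equalled the log2 fold changes of the authors' deposited tables within 5e-08, with the sign turned. Those deposited tables also hold adjusted p-values, which were not used. No intensities were used, so the part of dim probes in ratios near 0 was not tested.

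After 26 of 23460 probes were left out as controls, probes of a gene were averaged, giving 19231 entries, of which 14763 are named genes and 4468 are probes without a name. Of the genes, 3480 had more than 1 probe. Differences, 95% intervals and p-values come from limma 3.58.1 in R 4.3.3, with a mean for each group over all 30 arrays, eBayes and two-sided tests adjusted by Benjamini and Hochberg over all entries. No filter on low values was set, and the smallest p of an exact permutation of 3 arrays against 3 would be 0.1. On simulated data with 200 changed entries, 62%, 92%, 98% and 100% of changes of 0.25, 0.5, 1 and 2 in ROSI against MDI were called. Of the calls, 7 were false (3.83%). The simulated noise was normal and independent between arrays and entries. Far fewer entries changed there than were called in the data, so these shares need not hold for the arrays. Named genes were the 25 highest and 25 lowest called genes without overlap, 40 key genes (39 measured), up to 6 called genes of each of 37 lists by p, up to 12 genes alike in both treatments and up to 10 each way on opposite sides of DMSO. The members, lists and rules were chosen with earlier results of these data known. Python 3.11.15 and matplotlib 3.10.9 drew the figures, and promoter sequences are from RefSeq (GRCm38.p6).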

Additional observations from a re-analysis of the deposited data

How the results depend on the processing

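The counts of ROSI against MDI ran from 1307 to 1418 genes higher and from 1432 to 1626 lower when any of the 6 arrays was left out. Quantile normalization gave 1172 higher and 1081 lower, which moved the share of higher genes among those called from 48.1% to 52%. A limit of 2-fold left 136 genes in ROSI against MDI (28 higher and 108 lower), 389 in ROSI against DMSO (372 higher and 17 lower) and 603 in MDI against DMSO (528 higher and 75 lower). With the replicate number as a block, 3361 genes were called in ROSI against MDI, 1605 higher and 1756 lower, beside 3332 without it. The numbers do not pair the samples by the labels, and after the group means were taken out the ROSI and MDI arrays of the same number correlated at 0.114, -0.085 and -0.0786, so the block is no paired analysis. The counts changed by less than 1.5 times with array median centring, robust eBayes, array weights, only the compared groups and named genes only. A fit of only the ROSI and MDI arrays called 2651 genes, 1251 higher and 1400 lower. With each probe on its own, 4053 probes of named genes were called in ROSI against MDI. That count is of probes, so it cannot be set against the count of genes.

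Over the 219 named genes and all alternatives, the 2-fold limit included, the difference between ROSI and MDI kept its direction and its side of the threshold in 2898 values, lost the call in 204, gained it in 8 and turned in 10. Turned after quantile normalization were Cidec to 0.24, Gpd1 to 0.15, Mmd to 0.13, Pck1 to 0.23 and Pmvk to 0.11. Adig ranged from -0.075 to 0.11 without single arrays and came to -0.065 for the lower of its probes. Fabp4 ranged from -0.072 to 0.043 without single arrays and was -0.0050 with array weights. Against DMSO, quantile normalization turned 11 called values in ROSI: Hp to -0.13, Klf15 to -0.13, Retn to -0.24, 2610528A11Rik to -0.57, Ghrh to -0.39, Sncg to -0.23, Selenbp1 to -0.29, Apoc2 to -0.20, Ivd to -0.051, Pygl to -0.16 and Sult1a1 to -0.16. It also turned the uncalled values of Aldh1l1 to -0.84, Wfdc21 to -0.92 and Cyb561 to -0.50. In MDI it turned Cpz to -0.087, Fabp3 to -0.63 and Nr4a1 to -0.035. Among the gene lists, a fit of the compared groups alone changed counts of called genes from 5 to 3 higher for secreted, peroxisomal and cyclic AMP genes, from 4 to 2 higher for triglyceride assembly, from 4 to 2 lower for mitochondrial fatty acid oxidation and from 6 to 3 higher for ribosomal proteins. Counts of 1 to 3 genes in a list often changed by 1 or 2 without a single array or after quantile normalization. That step forces all arrays onto the same distribution, and the cause of the turned values was not tested. Groups of 3 arrays limit the precision of all values, and the signal over background was not analysed here.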

Other observations

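Further named genes filled out groups that the comparison only counted. Among the contractile genes lower in ROSI, Des, the muscle filament protein desmin, had 0.11 ± 0.042 in ROSI, 0.43 ± 0.049 in MDI and -0.22 ± 0.088 in DMSO, and Tpm2, a tropomyosin, had -0.26 ± 0.018 in ROSI, 0.19 ± 0.022 in MDI and 0.26 ± 0.033 in DMSO. Csrp1 had -0.32 ± 0.087 in ROSI, 0.059 ± 0.038 in MDI and 0.22 ± 0.035 in DMSO. Their differences were -0.33 ± 0.050, -0.45 ± 0.037 and -0.38 ± 0.062, or -0.16, -0.44 and -0.43 after quantile normalization. Desmin stood highest in MDI, whereas Tpm2 and Csrp1 were lower in ROSI than in both other groups.

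Among carbonyl and aldehyde enzymes, Aldh1a1, which makes retinoic acid, had -0.070 ± 0.0060 in ROSI, -0.36 ± 0.071 in MDI and 0.057 ± 0.043 in DMSO, and the carbonyl reductase Cbr2 had 0.19 ± 0.10 in ROSI, 0.94 ± 0.061 in MDI and -0.98 ± 0.12 in DMSO. The difference of Cbr2, -0.75 ± 0.064, came to -0.32 after quantile normalization. Hilpda, a lipid droplet protein induced by low oxygen, had -0.12 ± 0.062 in ROSI, 0.42 ± 0.040 in MDI and 0.047 ± 0.052 in DMSO, with ROSI below DMSO and MDI above it by group mean. Irs3, a rodent adapter of the insulin receptor, had -0.023 ± 0.070 in ROSI, 0.20 ± 0.027 in MDI and -0.043 ± 0.051 in DMSO, a difference of -0.22 ± 0.043. In Irs3 the ROSI and DMSO arrays overlapped.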
